A study of Mus musculus with 12 samples.

Results

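Complement components, receptors and regulators were followed in the brains of mice with and without cerebral ischemia. The members were taken by gene symbol and are 9 of the 31208 genes in the expression table: C1qa, C1qb and C1qc, C3, C4b, the receptor genes C3ar1, C5ar1 and Itgam, and the inhibitor gene Serping1. All 9 were found. Libraries came from 12 C57BL/6 mice aged 8 weeks, in 3 groups of 4. The groups were sham mice, mice taken at 6 h of ischemia after preconditioning with vehicle (Ischemia 6 h + Veh), and mice taken at 6 h of ischemia after preconditioning with lactate (Ischemia 6 h + Lactate).

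Ischemia was produced by occlusion of the middle cerebral artery. Per the study's methods, 2 μL of saline (vehicle) or of lactate at 100 mmol/L was injected into a lateral ventricle 24 h before surgery, and the methods name the compound as D-lactate where the labels say lactate. Sham mice carry no injection in their labels, so in a comparison with sham the effects of ischemia and of the injection cannot be told apart. The comparisons ask which complement genes differed after ischemia, and whether lactate before ischemia changed them further. Both comparisons with sham used the same 4 sham mice. The labels number 4 samples per group and do not say whether brains were pooled, so the p-values measure the spread between these samples.

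Complement is a cascade of plasma and tissue proteins that tags targets for uptake and recruits immune cells. C1q, built from the A, B and C chains, starts the classical pathway. C4 and C3 are then cleaved in turn, and the fragments C3a and C5a signal through their receptors, whereas Serping1 encodes the C1 inhibitor. In the brain C1q is made mainly by microglia, and complement tagging of synapses is known from development and disease.

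The C1q genes lie side by side on chromosome 4 of GRCm38, on the minus strand, in a block of 18.7 kb. C1qb (ENSMUSG00000036905) is at chr4:136880129-136886187, C1qc (ENSMUSG00000036896) at chr4:136889804-136893065 and C1qa (ENSMUSG00000036887) at chr4:136895917-136898803, each with 3 exons in its coding mRNA. Promoter windows of 250 bases before to 50 bases after the start site were taken from a table of RefSeq promoters (GRCm38.p6), with which 6 of the 9 members were matched. Those of C1qa, C4b and Serping1 were not used here. Shown are those of C1qb and C1qc, the members whose levels were ordered sham, vehicle, lactate without overlap, and of C5ar1, the member with the largest fitted fold change in lactate against sham. Each is printed 5′ to 3′ on the gene's own strand, here the minus strand, and capitals mark letters of the form TTNNGNAA (C/EBP).
C1qb promoter, chr4:136886151-136886450: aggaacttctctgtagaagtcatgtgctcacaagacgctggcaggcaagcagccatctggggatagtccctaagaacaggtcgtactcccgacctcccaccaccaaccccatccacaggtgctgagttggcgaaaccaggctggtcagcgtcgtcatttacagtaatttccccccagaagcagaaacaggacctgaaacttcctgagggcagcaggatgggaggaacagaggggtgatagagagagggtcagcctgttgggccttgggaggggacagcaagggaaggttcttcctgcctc
C1qc promoter, chr4:136892865-136893164: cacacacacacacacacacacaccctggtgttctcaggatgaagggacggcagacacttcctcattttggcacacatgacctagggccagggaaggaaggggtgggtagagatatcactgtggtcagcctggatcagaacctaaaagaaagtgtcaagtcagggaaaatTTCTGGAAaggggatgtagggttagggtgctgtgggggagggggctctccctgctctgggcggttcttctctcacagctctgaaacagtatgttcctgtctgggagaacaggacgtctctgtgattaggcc
C5ar1 promoter, chr7:16259289-16259588: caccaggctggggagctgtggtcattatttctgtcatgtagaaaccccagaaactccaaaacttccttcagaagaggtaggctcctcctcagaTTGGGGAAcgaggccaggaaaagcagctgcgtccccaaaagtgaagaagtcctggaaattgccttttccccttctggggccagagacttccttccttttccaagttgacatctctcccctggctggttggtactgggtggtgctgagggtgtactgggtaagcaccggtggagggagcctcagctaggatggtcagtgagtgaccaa

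The C/EBP letters stand at -81 in the C1qc window and at -157 in the C5ar1 window, counted from the start site, and do not occur in the C1qb window. Among the other members' windows they occur at 3 places in C3, at 2 in Itgam and not in C3ar1. They occur in 40.7% of the 32851 RefSeq windows of this length, on either strand. The letters GGGANTTCC (NF-kappa B, in 1.68% of windows), TTCNNNGAA (STAT, 8.3%) and GAAA, any 2 bases and GAAA again (interferon-stimulated element, 3.44%) were in none of the 6 members' windows on either strand.

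Levels are given in CPM, the reads of a gene divided by all gene reads of that mouse and scaled to a common total. A gene was called when its adjusted p in edgeR was under 0.05 and its fold change at least 1.5. Log2 fold changes are followed by their standard error.

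The 3 C1q chains were the most deeply counted members and were all highest after ischemia with lactate. C1qa, the A chain, was at 29.7, 54.6, 33.1 and 34.2 CPM in the 4 sham mice, at 50.2, 28.5, 60.5 and 60.3 CPM in the vehicle mice and at 103, 101, 97.2 and 94.3 CPM in the lactate mice. All lactate mice were above every other mouse, whereas sham and vehicle mice overlapped. C1qa rose in lactate against sham (log2 fold change 1.40 ± 0.178, 2.64-fold, edgeR adjusted p = 0.000323). Vehicle against sham gave 0.42 ± 0.255 (edgeR adjusted p = 0.502).

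C1qb, the B chain, was at 33.1, 34.9, 39.4 and 31.7 CPM in sham mice, at 51.0, 54.5, 56.6 and 61.2 CPM in vehicle mice and at 84.9, 77.7, 88.5 and 73.2 CPM in lactate mice. No 2 groups overlapped, and vehicle lay between sham and lactate. C1qb rose in both comparisons with sham, by 0.72 ± 0.14 on the log2 scale in vehicle mice (1.64-fold, edgeR adjusted p = 0.0227) and by 1.25 ± 0.118 in lactate mice (2.38-fold, edgeR adjusted p = 2.43e-05). The vehicle call was lost when any one of the 4 sham mice, or vehicle mouse 2, 3 or 4, was left out, with edgeR adjusted p from 0.0536 to 0.105.

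C1qc, the C chain, was at 34.8, 29.0, 36.4 and 35.1 CPM in sham mice, at 40.9, 54.5, 50.3 and 53.1 CPM in vehicle mice and at 73.8, 63.8, 68.2 and 67.4 CPM in lactate mice. These groups did not overlap either, with the same order as for C1qb. C1qc rose in lactate against sham (1.05 ± 0.114, 2.07-fold, edgeR adjusted p = 9.01e-05). The vehicle value of 0.59 ± 0.149 did not pass (edgeR adjusted p = 0.0834), but did without vehicle mouse 1 (edgeR adjusted p = 0.0184). With all mice kept it passed in DESeq2 (adjusted p = 0.00767) and limma voom (adjusted p = 0.0251). It also passed with all 12 mice in one fit (edgeR adjusted p = 0.0226). Of the 16520 genes tested in all 3 comparisons, 36 (0.218%) were ordered sham, vehicle, lactate with no overlap between neighbours, and C1qb and C1qc were among them.

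Within a mouse the chains were not in a fixed ratio. C1qa per C1qb was 1.57 in sham mouse 2 and 0.523 in vehicle mouse 2, and between 1.1 and 1.3 in the lactate mice. C1qc per C1qb ran from 0.77 to 1.11 over all 12 mice. The A chain thus varied more against the B chain than the C chain did, with its extremes in sham mouse 2 and vehicle mouse 2. C1qa per C1qb ran from 0.841 to 1.08 in the other sham and vehicle mice, below all lactate mice.

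**Figure D1:**
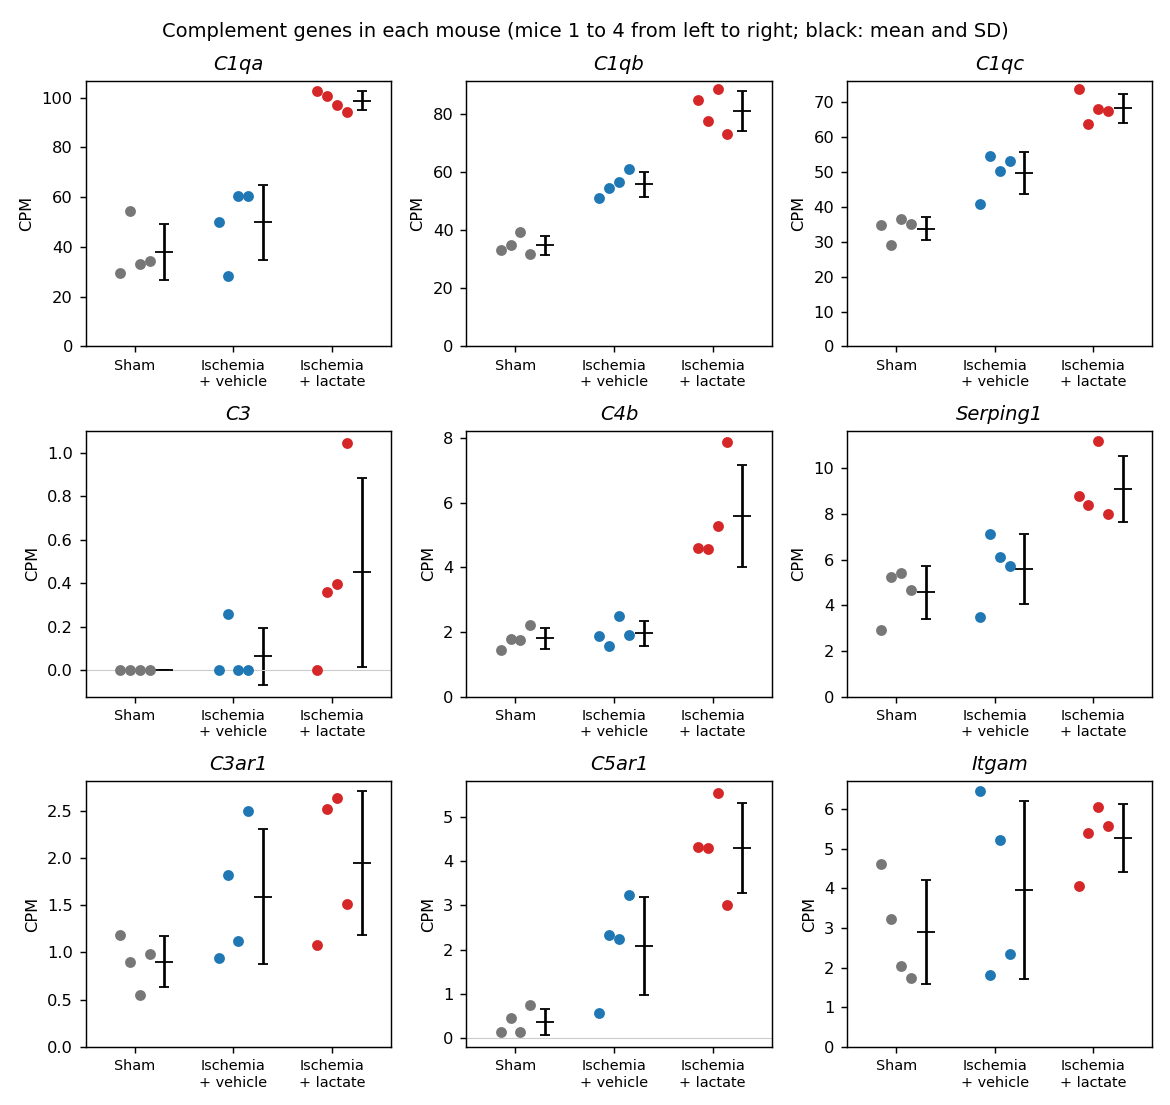
Level of each complement gene in CPM (vertical axis, linear, its own scale per gene) in every sham, vehicle and lactate mouse, with group mean and SD (n = 4) in black. The lactate mice lie above all other mice for C1qa, C1qb, C1qc, C4b and Serping1, whereas C3 stays at or under 1.04 CPM in every mouse.

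C4b, which encodes the C4 protein cleaved after C1 is activated, was called higher in lactate mice and not in vehicle mice, both against sham. Its levels were 1.45, 1.78, 1.77 and 2.22 CPM in sham mice, 1.87, 1.55, 2.49 and 1.91 CPM in vehicle mice and 4.60, 4.55, 5.27 and 7.88 CPM in lactate mice. Every lactate mouse was above every sham and vehicle mouse, and sham and vehicle mice overlapped. C4b rose in lactate against sham (1.65 ± 0.273, 3.13-fold, edgeR adjusted p = 0.00232), and vehicle against sham gave 0.15 ± 0.304 (edgeR adjusted p = 0.882). These values rest on 11 to 68 reads per mouse. C4b (ENSMUSG00000073418, chr17:34728380-34743882, minus strand) has a near-identical neighbour, C4a, which was not analysed here, so how reads were shared between the copies is uncertain.

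C3, the component on which all complement pathways meet (ENSMUSG00000024164, chr17:57203970-57228136, minus strand), was close to the limit of detection. It had 0 reads in all 4 sham mice, 0, 2, 0 and 0 reads in the vehicle mice and 0, 3, 3 and 9 reads in the lactate mice. The lactate mean was 0.45 ± 0.434 CPM (SD, n = 4), and lactate mouse 4 held 9 of the 15 lactate reads, so no fold change is given. C3 passed the filter on low counts in no comparison. A difference in C3 at or below a few reads per mouse was not detectable at this depth.

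Serping1, the inhibitor of C1 (ENSMUSG00000023224, chr2:84765387-84775444, minus strand), was at 2.90, 5.24, 5.43 and 4.69 CPM in sham mice, at 3.47, 7.12, 6.10 and 5.72 CPM in vehicle mice and at 8.79, 8.38, 11.2 and 8.00 CPM in lactate mice. The lactate mice were again above all others, and sham and vehicle mice overlapped. Serping1 rose in lactate against sham (1.01 ± 0.231, 2.02-fold, edgeR adjusted p = 0.0128). The vehicle value was 0.31 ± 0.288 (edgeR adjusted p = 0.687).

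Of the receptor genes, C5ar1 was called in lactate against sham and C3ar1 and Itgam were not, and no test compared them with one another. C5ar1, the receptor for C5a (ENSMUSG00000049130, chr7:16246743-16259540, minus strand), was at 0.13, 0.45, 0.14 and 0.74 CPM in sham mice, at 0.56, 2.33, 2.24 and 3.23 CPM in vehicle mice and at 4.33, 4.31, 5.54 and 3.01 CPM in lactate mice. Sham mice held 1 to 6 reads each, against 6 to 22 in vehicle and 26 to 42 in lactate mice. Lactate mice did not overlap sham mice but overlapped vehicle mice, and vehicle mouse 1 overlapped sham mice. The fitted log2 fold change for lactate against sham was 3.50 ± 0.435 (11.3-fold, edgeR adjusted p = 0.000278). C5ar1 entered that test only through the lactate mice, since no sham mouse reached 1 CPM, and it was not tested in vehicle against sham. Without the filter on low counts its fitted log2 value for vehicle mice over sham mice was 2.43 (edgeR adjusted p = 0.0597).

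C3ar1, the receptor for C3a (ENSMUSG00000040552, chr6:122847138-122856161, minus strand), was at 1.19, 0.89, 0.54 and 0.99 CPM in sham mice, at 0.94, 1.81, 1.12 and 2.49 CPM in vehicle mice and at 1.08, 2.51, 2.64 and 1.51 CPM in lactate mice. All groups overlapped. Lactate against sham gave 1.12 ± 0.383 (edgeR adjusted p = 0.0756) and vehicle against sham 0.81 ± 0.415 (edgeR adjusted p = 0.42), on 4 to 21 reads per mouse. With 1 sham mouse at 1 CPM or more, C3ar1 entered these tests through the ischemic mice. Without lactate mouse 1 the lactate value passed (edgeR adjusted p = 0.049), under the same limit.

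Itgam, the alpha chain of complement receptor CR3 and a common myeloid surface marker (ENSMUSG00000030786, chr7:128062640-128118491, plus strand), was at 4.62, 3.23, 2.04 and 1.73 CPM in sham mice, at 6.46, 1.81, 5.23 and 2.35 CPM in vehicle mice and at 4.06, 5.39, 6.07 and 5.57 CPM in lactate mice. The vehicle mice, from 1.81 to 6.46 CPM, overlapped both other groups. Neither comparison with sham passed, with 0.89 ± 0.296 in lactate mice (edgeR adjusted p = 0.0679) and 0.51 ± 0.428 in vehicle mice (edgeR adjusted p = 0.658). Without sham mouse 1, the highest sham mouse, the lactate value passed (edgeR adjusted p = 0.0306), as it did with limma voom (adjusted p = 0.0224).

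Counted together, 7 of the 9 members could be tested in vehicle against sham and 1 was called higher, against 1.29% of the 17019 genes tested. The median log2 fold change of those tested was 0.508, beside 0.0031 over all genes tested. In lactate against sham 8 could be tested and 6 were called higher, against 7.88% of 17262 genes, with a median of 1.18 beside -0.027. C5ar1 is 1 of the 6. At an unadjusted p under 0.05 and a fold change of 1.5, 2 members were higher in vehicle against sham (6.5% of genes) and 8 in lactate against sham (11.9%), of which C5ar1 and C3ar1 entered the test through the lactate mice. The groups did not overlap, with the ischemic mice higher, for 2 members in vehicle against sham (4.14% of genes tested) and for 6 in lactate against sham (10.4%). No member was called lower in either comparison with sham, where 0.182% and 2.51% of genes were (3.01% and 5.65% at an unadjusted p), and none lay wholly below sham, where 4.89% and 8.74% of genes did.

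**Figure D2:**
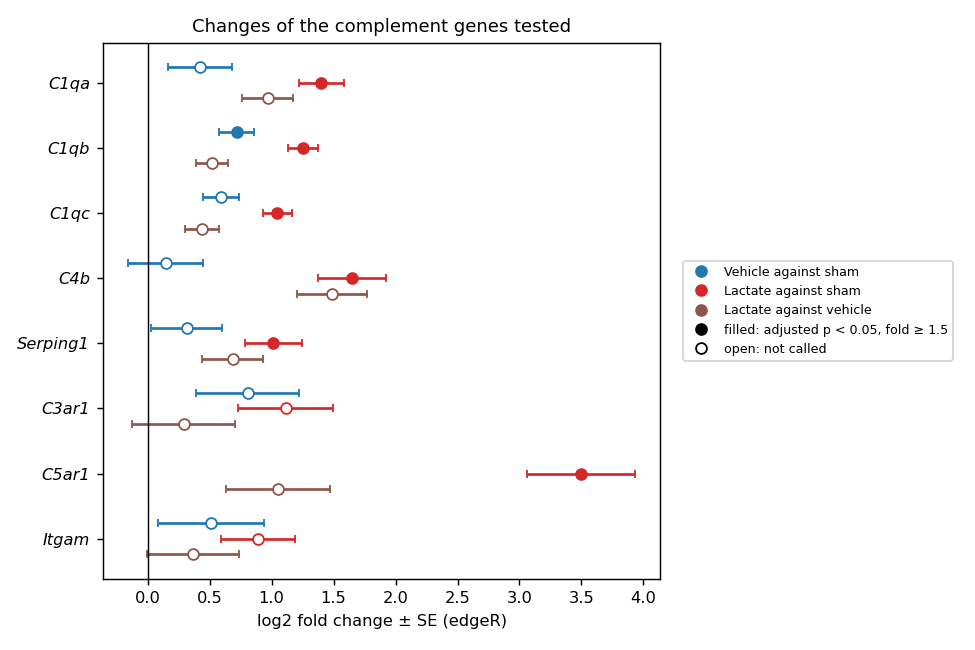
Log2 fold change with its standard error (horizontal axis, edgeR) for each complement gene that could be tested, in vehicle against sham, lactate against sham and lactate against vehicle, 4 mice per group. Filled points mark called genes: 6 in lactate against sham, 1 in vehicle against sham and 0 in lactate against vehicle.

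Lactate against vehicle is the direct comparison of the ischemic groups. All 8 members tested had fitted values above 0, with a median log2 fold change of 0.603 beside -0.029 over the 17419 genes tested, and 0 were called by edgeR, against 0.0% of genes called higher. At an unadjusted p under 0.05, edgeR gave 6 members higher, against 4.91% of genes, of which C1qa, C4b, C5ar1 and Serping1 also reached a fold change of 1.5, as 3.76% of genes did. DESeq2 called 2, C1qa (adjusted p = 0.00999) and C4b (adjusted p = 0.0101), against 0.287% of genes called higher by that tool. The lactate mice lay above all vehicle mice for C1qa, C1qb, C1qc, C4b and Serping1, that is 5 members, against 2.99% of genes tested. No member was lower here, where 0.00574% of genes were called lower, 2.47% were lower at an unadjusted p and 1.83% lay wholly below vehicle.

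C4b had the largest fitted difference here, 1.49 ± 0.285 on the log2 scale (2.8-fold, edgeR adjusted p = 0.355). C5ar1 followed with 1.05 ± 0.42 (edgeR adjusted p = 0.53) and C1qa with 0.97 ± 0.206 (edgeR adjusted p = 0.362). Serping1 gave 0.69 ± 0.247, C1qb 0.52 ± 0.129 and C1qc 0.44 ± 0.137, with edgeR adjusted p of 0.511, 0.46 and 0.493. The remaining receptors were nearer 0, Itgam at 0.36 ± 0.371 and C3ar1 at 0.29 ± 0.414, with 95% intervals of -0.364 to 1.09 and -0.521 to 1.1 that include 0.

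The samples are bulk brain tissue, in which fewer cells of a type and less RNA per cell cannot be told apart, so markers of brain and blood cell types were read beside the members. Summed over 10 microglial markers, the level was 247 to 262 CPM in sham mice, 145 to 230 CPM in vehicle mice and 223 to 248 CPM in lactate mice. None of these markers was called higher in any comparison. At an unadjusted p under 0.05 and a fold change of 1.5, P2ry13 (2.11-fold, edgeR adjusted p = 0.481) and Cx3cr1 (1.55-fold, edgeR adjusted p = 0.514) were higher in lactate against vehicle, and P2ry13 and Sall1 did not overlap between those groups. P2ry12 and P2ry13, purinergic receptors of resting microglia, were called lower in both comparisons with sham, Cx3cr1 in vehicle mice and Gpr34 in lactate mice. Without a call, Cx3cr1 was also lower in lactate against sham (0.678-fold, edgeR adjusted p = 0.102). Gpr34 was likewise lower in vehicle against sham (0.36-fold, edgeR adjusted p = 0.165). For P2ry12 the log2 fold change was -1.01 ± 0.204 in vehicle mice (edgeR adjusted p = 0.0275) and -1.10 ± 0.187 in lactate mice (edgeR adjusted p = 0.00265).

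C1q summed over its chains was 106 ± 9.3 CPM in sham, 155 ± 18.3 CPM in vehicle and 248 ± 11.9 CPM in lactate mice (SD, n = 4 each). Divided by the microglial marker sum of the same mouse, it was 0.391, 0.452, 0.438 and 0.409 in sham mice, 0.981, 0.599, 0.802 and 1.01 in vehicle mice and 1.15, 0.997, 1.02 and 1.05 in lactate mice. On this scale both ischemic groups lay above all sham mice, and vehicle and lactate mice overlapped. The ratio is a description and was not tested.

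Lists of blood-derived cells went in different directions. Over 8 neutrophil markers the summed level was 3.23 to 5.41 CPM in sham, 12.03 to 75.2 CPM in vehicle and 19.6 to 42.6 CPM in lactate mice. Of the 3 that could be tested in vehicle against sham 2 were called higher, against 1.29% of all genes tested. Of the 4 that could be tested in lactate against sham 3 were called higher, against 7.88%. The called genes were S100a8 and S100a9 in both and Retnlg in lactate mice. Retnlg reached 1 CPM in no sham mouse and S100a9 in 1, so they entered the test through the ischemic mice. Cxcr2, also tested, had means of 2.66 CPM in sham, 3.39 CPM in vehicle and 2.14 CPM in lactate mice and was not called. Ly6g, Mpo, Ngp and Camp could be tested in no comparison. The 2 neutrophil markers at 0 in all sham mice were above 0 in some ischemic mice. Vehicle mice 2 and 3 lay above all lactate mice in the neutrophil sum and vehicle mice 1 and 4 below them. The part of neutrophils in the complement levels was not tested. Over 9 markers of border macrophages and monocytes the sums were 9.78 to 14.2, 12.5 to 26.03 and 15.7 to 27.4 CPM, and Lyz2 alone was called, higher in lactate against sham. Over 5 red blood cell markers the sum was 560 to 633 CPM in sham, 333 to 500 CPM in vehicle and 375 to 499 CPM in lactate mice, below sham in every ischemic mouse. Of these Hbb-bt, a beta globin gene, fell in lactate against sham (-0.61 ± 0.134, edgeR adjusted p = 0.0109).

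Other brain cell types had single markers that moved. Gfap, the intermediate filament of reactive astrocytes, rose 3.13-fold in vehicle against sham (edgeR adjusted p = 0.0201) and 5.53-fold in lactate against sham (edgeR adjusted p = 2.01e-06), and was 1.74-fold higher in lactate against vehicle (edgeR adjusted p = 0.496). The other 5 astrocyte markers were not called. Of 5 endothelial markers Ly6c1 rose 1.82-fold (edgeR adjusted p = 0.00136) and Slco1a4, a transporter of brain vessels, fell by 1.70 on the log2 scale (edgeR adjusted p = 0.00073), both in lactate against sham. Mog, of myelin, fell by 0.60 on the log2 scale in the same comparison (edgeR adjusted p = 0.0125). No neuronal, meningeal or fibroblast marker was called. The part of any of these cell types in the complement levels was not tested.

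**Figure D3:**
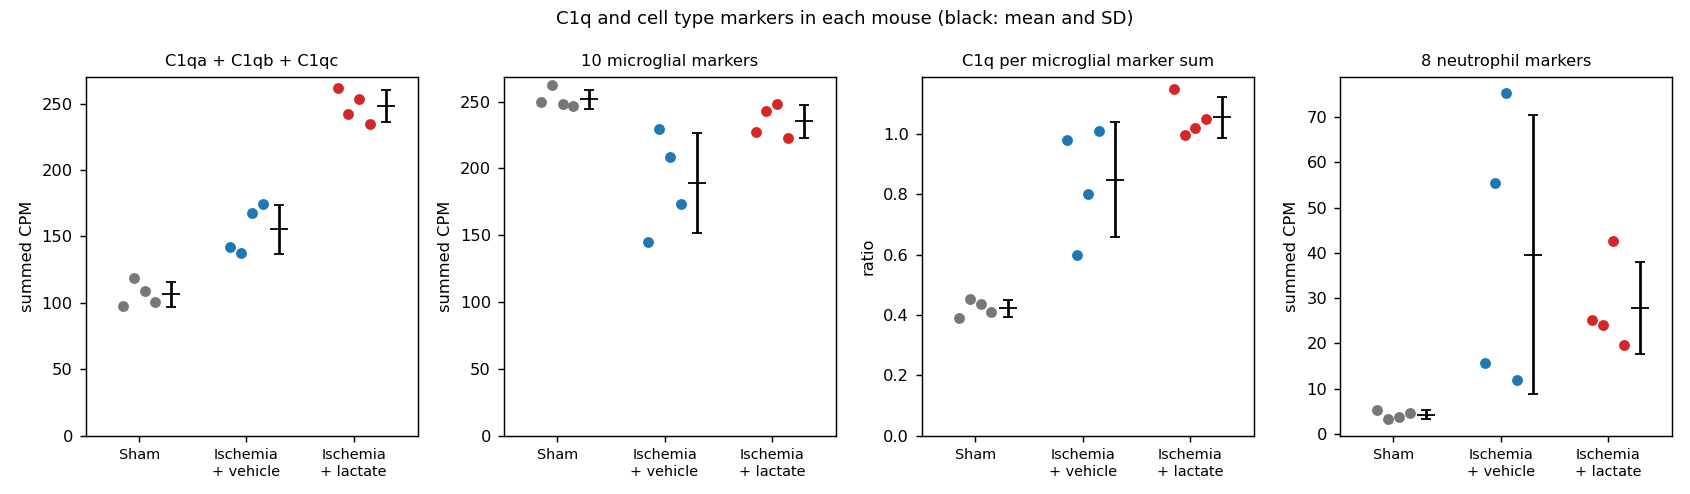
From left to right, summed CPM of the C1q chains, summed CPM of 10 microglial markers, the ratio of these sums, and summed CPM of 8 neutrophil markers, in each mouse, with group mean and SD (n = 4) in black. C1q is highest in lactate mice, the mean microglial sum is highest in sham mice, whose range meets that of lactate mice, and the ratio overlaps between vehicle and lactate mice.

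Vehicle mouse 2 stood apart, with 1837 CPM over 5 choroid plexus markers, nearly all from Ttr, against 3.67 to 14.3 CPM in the other 3 vehicle mice. Sham mice were at 1.22 to 4.35 CPM and lactate mice at 9.46 to 18.4 CPM, without overlap. Of the 5 markers only Ttr could be tested, and it rose 9.53-fold in lactate against sham (edgeR adjusted p = 9.51e-05). Mean Ttr was 1.48 CPM in sham and 13.9 CPM in lactate mice. Folr1 was at 0.642 and 0.673 CPM, Kl at 0.124 and 0.351 CPM and Clic6 at 0.153 and 0.471 CPM, with Otx2 at 0 in both groups. The part of the Ttr change in the complement levels was not tested. Within its group, vehicle mouse 2 had the lowest C1qa, C4b and Itgam levels and the highest C1qc and Serping1 levels. Without it C1qb was not called in vehicle against sham, as without most other single mice. Total gene reads ran from 6815920 to 10677224 per mouse, so that 3 reads correspond to 0.281 to 0.44 CPM.

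The rest of the pathway was read from a list of 43 further complement genes. Of these, 14 had at most 3 reads in every mouse and 21 could be tested in some comparison. None of the 7 terminal components, which form the membrane attack complex, could be tested, and 6 of them had at most 3 reads in every mouse. None of the 43 was called in vehicle against sham or in lactate against vehicle by edgeR, with 6 higher and 1 lower, and 1 higher and 1 lower, at an unadjusted p under 0.05 and a fold change of 1.5, of 20 tested in each. Over all genes these shares were 6.5% and 3.01% in the first comparison and 3.76% and 2.47% in the second. DESeq2 called 1, Cd59a, higher in vehicle against sham, where it called 2.26% of genes higher. In lactate against sham 2 of 21 were called higher and 0 lower, near the 7.88% and 2.51% of all genes, with a median log2 fold change of 0.195 beside -0.027 over all genes tested.

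The called genes were Cd59a and Itgb2. Cd59a, which encodes an inhibitor of the membrane attack complex, was at 10.8, 7.58, 7.33 and 10.4 CPM in sham mice, at 15.6, 18.5, 13.7 and 16.0 CPM in vehicle mice and at 15.7, 12.8, 15.6 and 16.8 CPM in lactate mice. Both ischemic groups lay above sham and overlapped each other. Cd59a rose in lactate against sham (0.79 ± 0.178, 1.72-fold, edgeR adjusted p = 0.0125), and vehicle against sham gave 0.86 ± 0.2 (edgeR adjusted p = 0.059).

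Itgb2, the beta chain that pairs with Itgam in CR3, was at 0.92, 1.12, 0.41 and 0.62 CPM in sham mice, at 1.31, 2.46, 2.61 and 1.32 CPM in vehicle mice and at 1.89, 1.68, 1.32 and 2.44 CPM in lactate mice. It too was above sham in every ischemic mouse. The fitted value for lactate against sham was 1.26 ± 0.377 (2.39-fold, edgeR adjusted p = 0.0449), and that for vehicle against sham 1.32 ± 0.415 (edgeR adjusted p = 0.175). With 1 sham mouse at 1 CPM or more, Itgb2 entered the test through the ischemic mice, and the call was lost when sham mouse 1, 3 or 4 or lactate mouse 1, 2 or 4 was left out, with edgeR adjusted p from 0.0672 to 0.117.

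Among those not called, Cfb, the protease of the alternative pathway, was at 1.38 ± 1.19 CPM in sham, 4.23 ± 1.27 CPM in vehicle and 3.17 ± 1.67 CPM in lactate mice (SD, n = 4 each). Its log2 fold change was 1.69 ± 0.532 in vehicle against sham (edgeR adjusted p = 0.179). Cd46, a membrane regulator, was the gene lower in vehicle mice at an unadjusted p, at -1.17 ± 0.339 (edgeR adjusted p = 0.139). Clu, which encodes clusterin, was at 982 ± 147, 1080 ± 46.3 and 1110 ± 10.5 CPM and gave 0.17 ± 0.115 in vehicle mice and 0.21 ± 0.0935 in lactate mice, both against sham (edgeR adjusted p of 0.555 and 0.171).

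**Figure D4:**
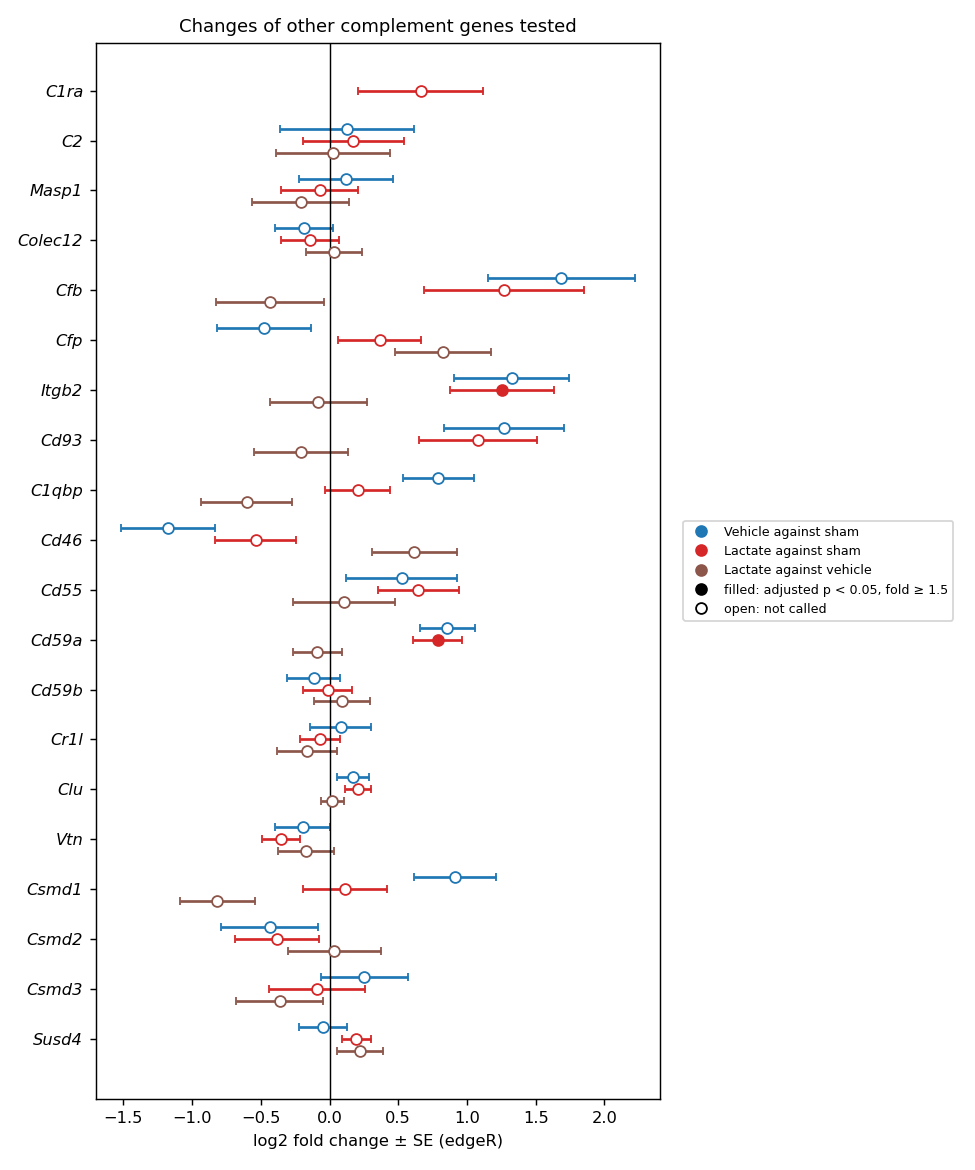
Log2 fold change with its standard error (horizontal axis, edgeR) for 20 of the 21 further complement genes that could be tested, in vehicle against sham, lactate against sham and lactate against vehicle, 4 mice per group. Filled points mark the called genes, Cd59a and Itgb2, both in lactate against sham.

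For each member the genes most like it over the 12 mice were taken from 12905 genes by Pearson's r of log2(CPM + 1), as a description, since mice of a group share their treatment. C1qb was nearest to Timp1 (r = 0.971), an inhibitor of metalloproteases, and C1qc to Ifitm2 (r = 0.978). C1qa and C4b shared S100a6 and Ccl12, a chemokine, among their nearest 3, with r of 0.936 and 0.923 for C1qa and 0.918 for both genes with C4b. C5ar1 was nearest to Anxa2 (r = 0.972) and C3ar1 to Cyp1b1 (r = 0.954). Serping1 was nearest to Stxbp3 (r = 0.948), and Itgam, at r = 0.876 with Smox, had no gene above 0.9. Between members, r was 0.961 for C1qb with C1qc and 0.836 for C1qa with C1qb.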

How the data were processed

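The authors sequenced PCR-amplified cDNA (14 cycles) as nanopore reads, dropped reads under a quality of 7 or a length of 500 bp and ribosomal reads, and kept full-length reads mapped with minimap2. The authors deposited raw counts per gene and CPM. The deposited CPM were each count divided by the total of its mouse, as recomputed to within 4.7e-06. The labels name GRCm38 and DESeq 1.10.1. The step that counted reads per gene, its use of strand and the annotation are not given in the sources used here. The authors' own fold changes and p-values were not used, 4 lines without a gene were dropped, and 0 per-sample columns were unused. Of the genes, 22036 are known genes and 8652 are loci marked new.

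Counts were tested with edgeR 4.0.16 (R 4.3.3, quasi-likelihood, TMM) on the 2 groups compared, for genes at 1 CPM or more in at least 4 of 8 mice, and p-values were adjusted over every tested gene by Benjamini-Hochberg. The standard error is the log2 fold change over the square root of F. The script was tested on simulated data. DESeq2 1.42.0, limma 3.58.1 (voom), other scaling, filters and call rules, all 12 mice in one fit, a replicate block and leaving out each mouse were alternatives. Positions are from GENCODE vM21 on GRCm38.

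All members are named. Further complement genes are named when called, plus up to 10 others to show a role. The values of 1 listed gene are not reported here, though it is included in the counts. The 3 nearest genes per member were those with the highest r. Members and lists were chosen with earlier results of these data known. The 95% intervals are built from the edgeR standard error and so include the spread between mice. Floors of 3 reads cover counting error only, and PCR copies are not independent molecules.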

Additional observations from a re-analysis of the deposited data

Results flagged for a closer look

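Over the complement members, 26 groups of 4 mice were examined for a single mouse far from the other 3, which chance gives in about 1 in 20 groups. One was found. C3 was at 0.259 CPM in vehicle mouse 2, on 2 reads, and at 0 in the other 3 vehicle mice, which is under the level of 3 reads in that library.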

How the results depend on the processing

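No log2 fold change of a tested member changed sign under any alternative run. Members called higher in lactate against sham numbered 6, and 5 to 7 when a mouse was left out, where C5ar1 could not be tested without any one lactate mouse. Without the filter on low counts C3 was called too (edgeR adjusted p = 0.0425), on 15 lactate reads, and limma voom also called 7, with Itgam. In vehicle against sham the count of 1 became 2 with DESeq2, with limma voom, with all 12 mice in one fit and at an unadjusted p, and 0 to 2 when a mouse was left out. With the replicate block it was 0 (C1qb, edgeR adjusted p = 0.0567). The labels give no pairing of mice. The correlation of same-numbered deviations ran from -0.148 to 0.158, which cannot decide whether mice were paired. The block left the member counts of 6 and 0 in the other comparisons. In lactate against vehicle the count of 0 became 2 with DESeq2 and 4 at an unadjusted p. The cause was not tested.

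Further complement genes called higher in vehicle against sham went from 0 to 1 with DESeq2, limma voom, Ensembl genes alone and all 12 mice in one fit. At an unadjusted p they were 6 higher and 1 lower, and in lactate against vehicle 1 higher and 1 lower. In lactate against sham the count of 2 became 1 with DESeq2, no filter, Ensembl genes alone and all 12 mice in one fit, 3 with the replicate block, 5 at an unadjusted p, and 1 to 2 when a mouse was left out. Over all genes, edgeR called 219 higher in vehicle against sham and DESeq2 384. In lactate against sham it was 1361, or 548 among Ensembl genes alone, and in lactate against vehicle 0, or 50 with DESeq2. At an unadjusted p these counts were 1107, 2047 and 655. Depth limits C3, C3ar1, C5ar1 and C4b, which rest on few reads.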
